A study of Mus musculus with 8 samples.

Results

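The proteins of the mitochondrial ribosome are encoded in the nucleus by genes whose symbols begin with Mrpl, for the large subunit, or Mrps, for the small one. The genes described here are those whose symbol is Mrpl or Mrps followed by a digit, leaving out pseudogenes and genes with no exon in the files. This rule, which uses names only, gave 77 of the 21991 gene IDs with exons, 48 named Mrpl and 29 named Mrps. The products of Mrps30 and Mrps18a sit in the large subunit despite their names, so 50 genes are counted with the large subunit. The other 27 are counted with the small subunit, among them Mrps36, whose product has been reassigned to the alpha-ketoglutarate dehydrogenase complex. Of the 77, 46 encode a protein with a counterpart in bacterial ribosomes and 31, Mrps36 included, a protein without one.

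The mitochondrial ribosome descends from that of a bacterium and makes only the few proteins that mitochondrial DNA encodes, all of them core subunits of the respiratory chain and of ATP synthase. Its rRNA is transcribed inside the organelle, while every one of its proteins is made in the cytosol and imported, so assembly draws on both genomes. Hematopoietic stem cells are known for mostly being quiescent, for relying little on oxidative phosphorylation and for low protein synthesis, and these features change as they become progenitors.

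RNA was sequenced from a pair of bone marrow fractions of C57BL/6 mice aged 8 to 10 weeks. Both fractions are described as sorted Lineage-, Sca1+, c-Kit+ and CD150+ cells, although the RNA of CD150 differed widely between them, as given below. HSC, the hematopoietic stem cell fraction, was CD34-, and HPC, the progenitor fraction, was CD34+, with 4 libraries each. The comparison addresses how the stem cell fraction differs from a progenitor fraction. One preparation is described for all the libraries, with 5000 sorted cells, RNA extracted with ISOGEN and cDNA made with a SMARTer Pico kit, although that text names HSC only and the source of every library is given as hematopoietic stem cells. The labels do not tie libraries to separate animals, and a p-value below compares the fractions with the spread among these libraries, some of which may be technical. In bulk RNA, fewer cells of a type and less RNA per cell cannot be told apart.

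Exon reads numbered 16291733 to 19070313 per library in HSC and 18223082 to 20564901 in HPC. The labels were checked against markers. All 6 stem cell markers were higher in HSC, at a summed 648 to 854 CPM (exon reads scaled to library size with TMM factors) in HSC against 230 to 288 CPM in HPC, and all 3 progenitor markers, Cd34 among them, were lower, at 137 to 179 CPM in HSC against 2229 to 2304 CPM in HPC. Slamf1, among these stem cell markers, encodes CD150, on which both fractions are said to be sorted. It had 32.1 to 45.5 CPM in HSC against 2.32 to 3.90 CPM in HPC, a log2 change of 3.58. The markers thus separate the fractions but do not bear out a shared CD150+ sort, and CD150 protein was not tested. Some markers of other cell types also differed. Red cell markers (3 of 7 tested higher) summed to 183 to 462 CPM in HSC against 40.9 to 161 CPM in HPC, T and NK cell markers (4 of 5 higher) to 40.3 to 52.8 CPM in HSC against 7.56 to 15.8 CPM in HPC, and neutrophil and monocyte markers (1 of 5 lower) to 189 to 284 CPM in HSC against 255 to 499 CPM in HPC. Of the B cell markers 2 of 5 were higher, with sums of 60.2 to 78.6 CPM in HSC against 57.4 to 63.9 CPM in HPC. Of the 3 stromal and endothelial markers 1 was higher and 1 lower. The sums of B cell markers and those of neutrophil and monocyte markers overlapped between the fractions. By the same test, described below, 19.6% of all tested genes were higher in HSC and 17.6% lower. The part of these cells in the results below was not tested.

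Of the 77 genes, 68 have a window of 300 bases around their start, 250 before and 50 after, in a table made from RefSeq on GRCm38.p6, which is the build called mm10. Transcription of many such genes in mammals is known to depend on NRF1 and on GABP, an ETS family factor, and YY1 binds near the start of many of them too. The core of an ETS site, CGGAAG on either strand, is shown first upstream of Mrpl52, the one of the 77 that edgeR called different between the fractions. Capitals mark the core, and its reverse complement reads CTTCCG. The stretch is chr14:54426659-54426908 on the plus strand and ends 1 base before the start of the gene.

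Mrpl52 upstream: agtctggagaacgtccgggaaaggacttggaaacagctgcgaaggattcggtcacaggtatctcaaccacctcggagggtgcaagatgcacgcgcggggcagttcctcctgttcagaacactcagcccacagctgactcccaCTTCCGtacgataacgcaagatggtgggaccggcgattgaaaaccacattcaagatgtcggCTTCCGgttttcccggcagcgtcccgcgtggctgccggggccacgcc

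The third core lay just past the start of Mrpl52. The whole window held 3 cores, as did that of Mrps18b, while a window of Mrps16 held 4. The table lists more than 1 window for 3 of the 68 genes, and a gene is counted here by whichever of its windows holds the most matches. Counted so, 2.72% of the 10245 tested genes with a window held 3 cores or more. At least 1 core was present in 38 of the 68 genes (55.9%), against 34.9% of the tested genes and 16.9% of all 32851 windows. The next sequences show the longer ETS and GABP motif CCGGAAGT, which contains the core, in capitals for 4 genes of the large subunit. Mrpl52 and Mrpl33 are the 2 described most closely below, and Mrpl18 and Mrpl43 show the same letters farther from and close to the start used for the window. The 4 stretches lie at chr14:54426899-54426928 (plus strand), chr5:31613937-31613966 (plus), chr17:12916312-12916341 (minus) and chr19:45006436-45006465 (minus). The start used for a window can differ from that of the gene span used for counting. The stretch of Mrpl18 lies inside its counted span, 12911345 to 12916478, and those of Mrpl9 and Mrpl39 below also lie inside theirs.

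Mrpl52: gggccacgcccACTTCCGGttcccttgctc
Mrpl33: ccgcgcatgccCCGGAAGTagtcgttgagc
Mrpl18: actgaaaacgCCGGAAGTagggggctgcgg
Mrpl43: caaccccggaaCCGGAAGTcaccggttagt

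This motif was found in 12 of the 68 genes (17.6%), against 9.07% of tested genes and 3.89% of all windows. The core of the NRF1 motif, CGCATGCG, is its own reverse complement and was found in 7 genes (10.3%), against 4.30% of tested genes and 1.87% of all windows. With any base allowed for its A, as CGCNTGCG on either strand, it was found in 20 genes (29.4%), against 19.1% of tested genes and 8.21% of all windows. Mrpl9, Mrpl32 and Mrpl39 are shown, with the core in capitals, at chr3:94443298-94443327 (plus), chr13:14613105-14613134 (minus) and chr16:84735350-84735379 (minus).

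Mrpl9: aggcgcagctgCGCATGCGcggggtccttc
Mrpl32: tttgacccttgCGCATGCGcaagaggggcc
Mrpl39: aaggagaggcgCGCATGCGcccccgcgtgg

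The YY1 motif AAGATGGCG was found in 8 genes (11.8%), against 3.51% of tested genes and 1.40% of all windows. In Mrps27 and Mrps18a it lay just after the start of the gene and in Mrps11 upstream on the other strand. These 3 windows lie at chr13:99344789-99344818, chr17:46111004-46111033 and chr7:78783012-78783041, all on the plus strand.

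Mrps27: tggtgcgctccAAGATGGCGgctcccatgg
Mrps18a: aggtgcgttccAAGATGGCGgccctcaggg
Mrps11: cctacgggcgcCGCCATCTTtctgtcttcc

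At least 1 of CGCNTGCG, CCGGAAGT and AAGATGGCG was present in 36 of the 68 genes (52.9%) and in 28.6% of the tested genes. In the first window listed for each gene, the median G and C content was 58.2% for the 68 genes and 60.7% for tested genes. A match of letters is a description of the sequence and does not show binding.

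The genes of the mitochondrial ribosome were expressed at close to the same level in HSC and in HPC, with the exception of Mrpl52. All 77 passed the filter on low counts, with 221 to 4518 exon reads in any 1 library. The edgeR quasi-likelihood test with Benjamini-Hochberg adjustment over 12751 genes called 1 of the 77 higher in HSC and 0 lower at an adjusted p under 0.05, where 37.1% of all tested genes were called, 19.6% higher and 17.6% lower. At an unadjusted p under 0.05 there were 2 genes, Mrpl52 and Mrpl50, both higher, and 0 lower. DESeq2, which called 39.7% of all genes, called these 2 higher and 0 lower, and voom, which called 40.9%, called Mrpl52 higher and 1 gene, Mrpl33, lower.

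The median log2 change over the 77, HSC over HPC, was 0.04, against 0.00 over all tested genes. Single values ran from -0.29 for Mrpl33 to 0.81 for Mrpl52, 45 of them positive and 32 negative. The median size of the change, whatever its sign, was 0.10 over the 77 and 0.31 over all tested genes. It was 0.23 over the 8046 other tested genes with mean levels between those of the lowest and the highest of the 77, 14.6 and 207 CPM. Of these 8046, 34.8% were called. The spread among libraries of 1 fraction was alike, with a median SD of log2 CPM of 0.19 over the 77 and 0.18 over the 8046.

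**Figure D1:**
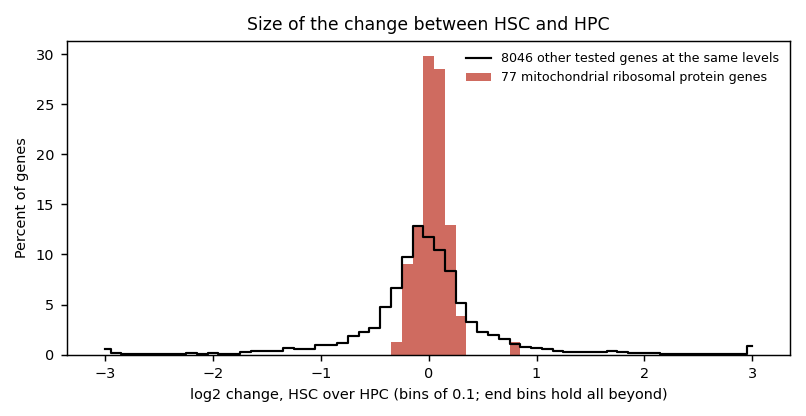
Percent of genes (vertical axis) by log2 change, HSC over HPC, in bins of 0.1 (horizontal axis), for the 77 mitochondrial ribosomal protein genes (red bars) and 8046 other tested genes at the same levels (black line); the end bins hold all genes beyond them. The red bars lie between -0.29 and 0.31 except that of Mrpl52 at 0.81, and the black line is broader.

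Since a missed threshold does not show equal expression, the 95% intervals of the changes were read. For 74 of the 76 genes without a call the interval lay within 1.5-fold in either direction, which is 0.58 on the log2 scale. The exceptions were Mrpl41, with an upper bound of 0.63, and Mrpl33, with a lower bound of -0.60. In simulated counts with 12796 genes tested, 2 of 50 genes changed 1.25-fold, 43 of 100 changed 1.5-fold and 49 of 50 changed 2-fold were recovered. Only 99 genes were called there, against 37.1% of all tested genes in the data. The adjusted threshold was thus stricter in the simulation, and these rates do not carry over to the data. Of genes described below, Dap3 was called at a log2 change of 0.28 and Mrpl50, also at 0.28, was not.

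The subunits were then taken apart. Of the 50 genes of the large subunit 1 was higher, 0 were lower and the median log2 change was 0.06, and of the 27 of the small subunit 0 were called in either direction by edgeR, by DESeq2 and by voom, with 0 of them in edgeR at an unadjusted p under 0.05 and a median of 0.03, or 0.02 without Mrps36. Among the 46 genes with a bacterial counterpart edgeR and DESeq2 called 0, again with 0 at an unadjusted p under 0.05, voom called 1 (Mrpl33, lower) and the median was 0.04. Among the 31 without a counterpart 1 was higher by edgeR, with a median of 0.04, while DESeq2 called 2 higher and voom 1. In the large subunit DESeq2 called 2 higher, and voom called 1 higher and 1 lower.

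**Figure D2:**
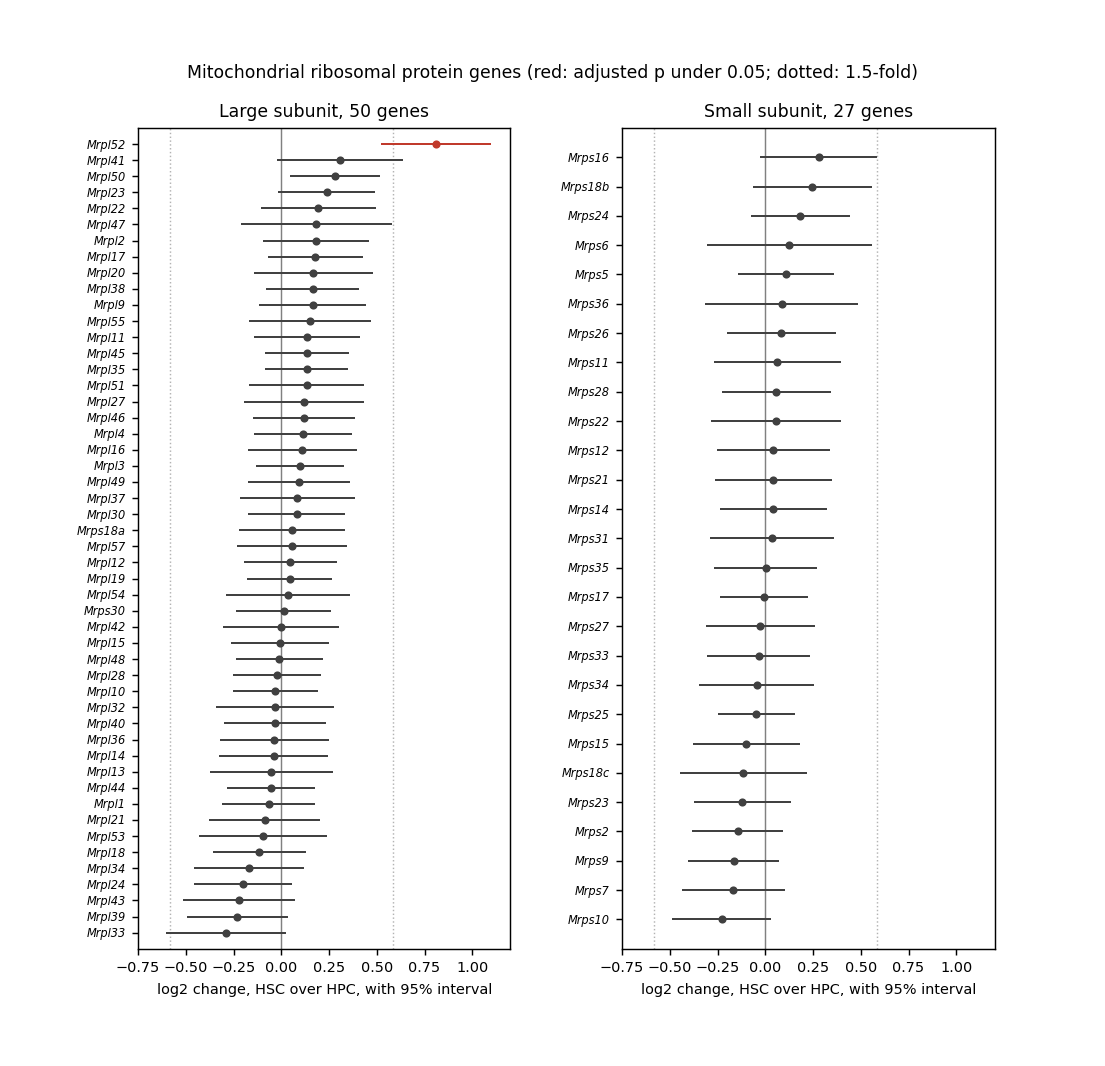
The log2 change, HSC over HPC (point), with its 95% interval (line) on the horizontal axis for the 50 large subunit genes (left) and 27 small subunit genes (right), ordered by size; red marks an adjusted p under 0.05 and dotted lines mark 1.5-fold. The interval of Mrpl52 runs from 0.53 to 1.09, and those of Mrpl41 and Mrpl33 are the other ones to cross a dotted line.

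Mrpl52 encodes a mitochondria-specific protein of the large subunit. The gene (NCBI gene 68836) lies at 54426909 to 54429750 on the plus strand of chromosome 14 in mm10 and has 5 exons with a summed length of 412 bases, the shortest of the 77. Its level was 116, 104, 96.5 and 153 CPM in HSC libraries 1 to 4, against 66.5, 71.0, 60.9 and 69.2 CPM in HPC libraries 1 to 4. Every HSC library lay above every HPC library, and HSC 4 was the highest. Groups that do not overlap were found for 2 of the 77 genes, Mrpl52 and Mrpl50, both higher in HSC, and for 36.7% of all tested genes, 19.5% higher in HSC and 17.2% lower.

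Mrpl52 averaged 117 ± 24.9 CPM in HSC against 66.9 ± 4.42 CPM in HPC (SD, n = 4 each), a 1.75-fold difference. Its log2 change was 0.81 with a standard error of 0.13 and an edgeR adjusted p of 0.000213. A test against a fold of 1.5 rather than against no change gave an adjusted p of 0.086, so a difference above 1.5-fold was not shown. Without HSC 4 the log2 change was 0.65 and without either library numbered 4 it was 0.67, and both kept the call.

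Reads of Mrpl52 were free of the ambiguity that affects some of the 77. All of its exon reads were placed uniquely, and 97.1% spanned an exon junction. Reads in its introns, which can come from unspliced transcripts, numbered 438, 443, 287 and 345 in HSC libraries 1 to 4, against 210, 250, 171 and 217 in HPC libraries 1 to 4, so the intron counts did not overlap between the fractions either. On unique exon-exon reads alone the log2 change was 0.83.

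The genes on both sides of Mrpl52 were examined as well. Mmp14, which encodes a membrane-bound matrix metalloproteinase, starts 1848 bases past the end of Mrpl52 on the same strand. It averaged 34.6 ± 1.54 CPM in HSC against 3.76 ± 1.45 CPM in HPC, a log2 change of 3.19 (edgeR adjusted p of 7.12e-08). Slc7a7, which encodes an amino acid transporter light chain, lies 9207 bases before Mrpl52 on the other strand and averaged 12.0 ± 0.412 CPM in HSC against 2.57 ± 0.463 CPM in HPC, a log2 change of 2.22 (edgeR adjusted p of 2.69e-06). Both immediate neighbours were thus higher in HSC. Lrp10 and Oxa1l, which lie farther out, were without a call at log2 changes of 0.20 and -0.12, and the product of Oxa1l inserts proteins made by the mitochondrial ribosome into the inner membrane.

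Mrpl50, another mitochondria-specific protein of the large subunit, had 101, 107, 110 and 132 CPM in HSC libraries 1 to 4, against 98.7, 95.5, 80.1 and 95.7 CPM in HPC libraries 1 to 4. The fractions did not overlap, but the lowest HSC library stood only slightly above the highest HPC library. The log2 change was 0.28 with a standard error of 0.11 and an edgeR adjusted p of 0.054, so it missed the threshold. It passed under DESeq2 (adjusted p of 0.0408) and, in edgeR, with a filter of 50 reads in 4 libraries (adjusted p of 0.0423), with upper quartile scaling (adjusted p of 0.016) and with HSC 1 left out (0.33, adjusted p of 0.0451). Mrpl50 and Mrpl41, described next, were named after their values were seen.

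Mrpl41 encodes a further large subunit protein without a bacterial counterpart. Its levels were 57.2 to 83.2 CPM in HSC against 41.1 to 61.7 CPM in HPC, overlapping, with a log2 change of 0.31 ± 0.15 (SE) and an edgeR adjusted p of 0.13. Of its span, 1002 bases are shared with Dph7 on the opposite strand. As the sources used here do not say whether counting used strand, reads of such a pair cannot be told apart. In all, 18 of the 77 genes overlap another gene with exons, 15 on the opposite strand and 3 on the same one. Of these 18, 6 overlap a gene that was called, where 37.1% of all tested genes were called.

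Across the set, levels were far from equal. Per length of exon, the mean level over 8 libraries had a median of 45.5 RPKM, which is exon reads scaled to the length of the exons and to all exon reads of the library, and ran from 19.4 at the 10th percentile to 121 at the 90th, a ratio of 6.23. The order of the genes was shared by the fractions, with a Pearson r of 0.99 between log2 mean RPKM in HSC and in HPC over the 77 genes and a Spearman rho of 0.99. These are descriptions across genes, which are not independent replicates and share their exon lengths between the fractions. The genes are compact, with a median summed exon length of 1324 bases and a median of 6 exons, against 3436 bases and 12 exons over all tested genes.

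Mrpl33, which encodes a small protein of the large subunit with a bacterial counterpart, stood highest per length. It had 275 ± 50.2 RPKM in HSC and 318 ± 45.2 RPKM in HPC (SD, n = 4 each). In CPM its levels were 109, 107, 121 and 163 in HSC libraries 1 to 4, against 162, 161, 118 and 169 in HPC libraries 1 to 4. In each fraction 1 library fell among those of the other fraction, HSC 4 high and HPC 3 low. The log2 change was -0.29 ± 0.14 (SE) with an edgeR adjusted p of 0.13. Without HSC 4 it was -0.45 and called, and without HPC 3 it was -0.41 and called, so the call depended on each of these libraries.

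Mrpl52 came next, with 292 ± 54.0 RPKM in HSC and 157 ± 9.49 RPKM in HPC. Mrpl42, a mitochondria-specific large subunit protein, followed with 221 ± 39.0 RPKM in HSC and 209 ± 28.4 RPKM in HPC, and its log2 change was 0.00. The RPKM values of Mrpl33 and Mrpl42 overlapped between the fractions within their SD. RPKM here is scaled by exon reads alone, without TMM, while the changes are fitted on TMM-scaled counts.

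At the other end, Mrpl15, a core large subunit protein with a bacterial counterpart, had 14.1 ± 1.88 RPKM in HSC and 13.4 ± 0.962 RPKM in HPC. Mrps25, a small subunit protein found only in mitochondria, had 12.4 ± 0.791 RPKM in HSC and 12.1 ± 0.571 RPKM in HPC. Mrpl1, the counterpart of a bacterial stalk protein, had 11.2 ± 0.621 RPKM in HSC and 11.1 ± 0.917 RPKM in HPC. The highest of the 77 genes was 26.6 times the lowest per length. The 3 lowest genes have summed exon lengths of 7204, 6076 and 4406 bases, and the sources used here do not say how alternative transcripts entered these lengths.

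**Figure D3:**
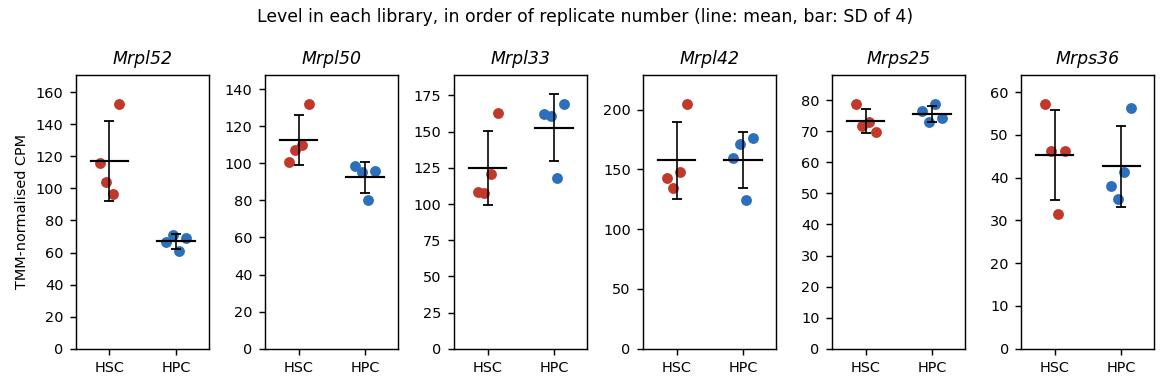
TMM-normalised CPM (vertical axes, each from 0) in the 4 HSC libraries (red, left) and the 4 HPC libraries (blue, right), in order of replicate number, for 6 of the genes; lines are means and bars are SD. Mrpl52 is 96.5 to 153 CPM in HSC against 60.9 to 71.0 CPM in HPC, whereas the fractions overlap for Mrpl33, Mrpl42, Mrps25 and Mrps36.

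Among the genes without a call, the log2 changes with the smallest standard errors were those of Mrps25, Mrpl35 and Mrpl45, at 0.09, 0.10 and 0.10. Mrps25 had 78.6, 71.6, 72.9 and 69.8 CPM in HSC libraries 1 to 4, against 76.6, 73.0, 78.8 and 74.3 CPM in HPC libraries 1 to 4, a pooled SD of 0.06 on the log2 scale and a log2 change of -0.05 with a 95% interval of -0.25 to 0.15. Part of its span, 3547 bases, is shared with Nr2c2 on the opposite strand. Mrpl35, the counterpart of a small bacterial large subunit protein, averaged 89.3 ± 8.54 CPM in HSC against 81.5 ± 4.69 CPM in HPC, and Mrpl45, which lies near the exit of the peptide tunnel, averaged 92.2 ± 10.3 CPM in HSC against 84.0 ± 3.61 CPM in HPC. Their log2 changes were 0.13 and 0.14, neither called.

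The most variable within a fraction were Mrps36, Mrps6 and Mrpl47. Mrps36 had 57.2, 46.2, 31.4 and 46.1 CPM in HSC libraries 1 to 4, against 38.1, 35.0, 41.2 and 56.3 CPM in HPC libraries 1 to 4. Its pooled SD was 0.33, and the fractions overlapped throughout. Mrps6, counterpart of a small subunit protein of bacteria, had 12.3 to 20.03 CPM in HSC against 11.0 to 17.5 CPM in HPC, and lies on the same strand as Slc5a3, which shares 29138 bases of its span. Mrpl47, counterpart of a bacterial protein at the tunnel exit, had 15.6 to 26.2 CPM in HSC against 14.8 to 21.3 CPM in HPC. None of these 3 was called, with log2 changes of 0.09, 0.13 and 0.18.

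Not every member could be placed with certainty. For 45 of the 77 genes all exon reads were unique and for 56 over 99% were, but 6 had under 50%. Mrpl40 and Mrps23 had 0% unique exon reads and Mrps18b 0.43%, and each is also listed on an alternate locus of the assembly. Their summed levels were 59.7 ± 8.85 CPM in HSC against 61.1 ± 5.01 CPM in HPC for Mrpl40, 49.4 ± 5.41 CPM in HSC against 53.7 ± 3.79 CPM in HPC for Mrps23, and 53.9 ± 8.66 CPM in HSC against 45.5 ± 6.82 CPM in HPC for Mrps18b. All 3 were without a call, at log2 changes of -0.03, -0.12 and 0.25.

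How reads fell between such copies differed from library to library. Mrpl22, another gene with 2 rows, had 38, 463, 476 and 181 reads on its main-assembly row in HSC libraries 1 to 4, against 116, 479, 62 and 62 in HPC libraries 1 to 4. Its alternate row had 901, 449, 463 and 1120 reads in HSC, against 875, 404, 716 and 887 in HPC. Neither row alone gives the level of the gene. The sum was steadier, at 54.9 ± 10.0 CPM in HSC against 48.0 ± 5.08 CPM in HPC. The sources used here do not say whether a read that fits both rows was counted once.

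Within each fraction the 77 genes moved together by library. Their summed level was 5681, 5370, 5148 and 6763 CPM in HSC libraries 1 to 4, against 5585, 5593, 5019 and 6240 CPM in HPC libraries 1 to 4. In both fractions the library numbered 4 was the highest and that numbered 3 the lowest, and the fractions overlapped, at 5740 ± 716 CPM in HSC against 5609 ± 499 CPM in HPC. HSC 4 was the highest library of its fraction for 66 of the 77 genes and HPC 4 for 58.

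Set against the mean of the other 3 libraries of its fraction, the median gene of the 77 was shifted on the log2 scale by 0.02, -0.11, -0.24 and 0.32 in HSC libraries 1 to 4, and by 0.00, -0.01, -0.19 and 0.23 in HPC libraries 1 to 4. Over the 8046 other genes at the same levels the medians lay between -0.02 and 0.02. Nuclear genes of the respiratory chain shifted alike, by 0.37 in HSC 4 and 0.24 in HPC 4. Cytosolic ribosomal protein genes shifted by 0.21 in HSC 4 and 0.32 in HPC 4, but also by 0.21 in HSC 1 and by -0.38 in HSC 3. For the 77 genes, the shifts of HSC 2, HSC 3, HSC 4, HPC 3 and HPC 4 were larger in size than the median change of 0.04 between the fractions. Those of HSC 1, HPC 1 and HPC 2 were smaller. A shift of 1 library and a change between fractions are unlike measures.

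The libraries also differed in the make-up of their reads. The share of exon reads that spanned a junction was 50.5%, 48.6%, 54.8% and 56.8% in HSC libraries 1 to 4, against 56.6%, 54.9%, 52.2% and 51.7% in HPC libraries 1 to 4, and the share of gene reads in introns was lowest in the libraries numbered 4, at 16.8% in HSC 4 and 17.4% in HPC 4. The other libraries had 20.6% to 20.8% in HSC and 18.8% to 21.9% in HPC. The part of read make-up in the shift was not tested. Without those 2 libraries the count was 1 higher (Mrpl52) and 1 lower (Mrpl33), where 34.0% of all genes were called.

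**Figure D4:**
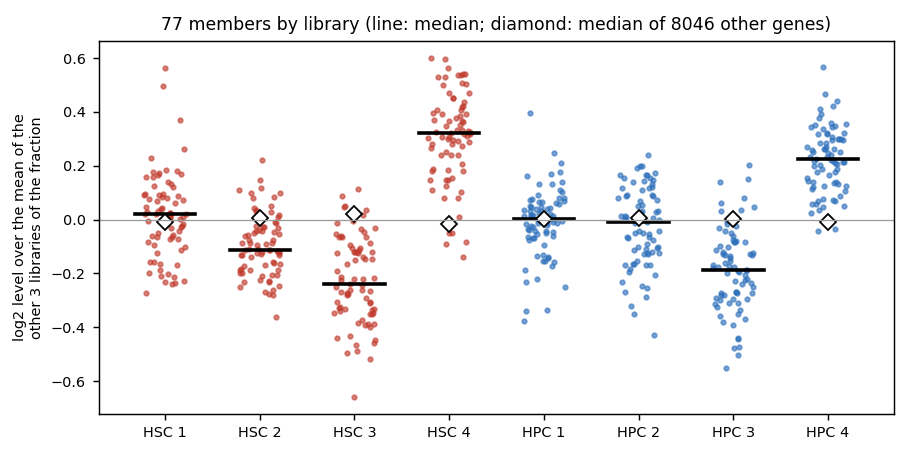
The log2 level of each of the 77 genes over the mean of the other 3 libraries of its fraction (vertical axis) in each library (horizontal axis; HSC red, HPC blue); bars are medians of the 77 and diamonds medians of 8046 other genes at the same levels. The bars of HSC 4 and HPC 4 stand at 0.32 and 0.23, and the diamonds lie near 0 in every library.

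Other gene sets of the ribosome and the respiratory chain were set beside the 77. Of 82 cytosolic ribosomal protein genes tested, edgeR called 0 in either direction (2 at an unadjusted p under 0.05), as did DESeq2 and voom, with a median log2 change of -0.02. Of 80 nuclear respiratory chain genes, 3 (3.75%) were higher and 3 (3.75%) lower, where 19.6% and 17.6% of all tested genes were. Their median log2 change was 0.02, with single values from -3.54 to 2.16. Differences between these sets and the 77 were not tested.

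Proteins of the mitochondrial ribosome that do not carry an Mrp symbol were represented by 6 genes, of which 1 (16.7%) was called higher, where 19.6% of all tested genes were, and 0 lower. Dap3, a GTP-binding protein of the small subunit, had 137, 132, 126 and 156 CPM in HSC libraries 1 to 4, against 102, 120, 121 and 110 CPM in HPC libraries 1 to 4. The fractions did not overlap, and the log2 change was 0.28 with an edgeR adjusted p of 0.036. The call was kept under 12 of 21 alternatives and was lost without HSC 1, HSC 2, HSC 4, HPC 1 or HPC 4, at adjusted p-values of 0.0613 to 0.123. The other 5 genes, Ptcd3, Aurkaip1, Gadd45gip1, Chchd1 and Ict1, had log2 changes of -0.19 to 0.12.

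Among 28 tested genes listed as assembly or rRNA factors of the mitochondrial ribosome, 0 were higher and 1 (3.57%) was lower. Their median log2 change was 0.08. Of all tested genes, 17.6% were lower. The exception was Rbfa, a factor that binds the small subunit rRNA during maturation. It had 73.3, 72.2, 70.7 and 84.4 CPM in HSC libraries 1 to 4, against 118, 127, 115 and 125 CPM in HPC libraries 1 to 4. All HSC libraries lay below all HPC libraries, and the log2 change was -0.69 with an edgeR adjusted p of 3.82e-05. The 14 initiation, elongation, release and recycling factors and related genes had 0 calls by edgeR (1 at an unadjusted p under 0.05, and 1 call each by DESeq2 and voom) and a median of 0.03. Tufm, the mitochondrial elongation factor Tu, averaged 82.7 ± 8.66 CPM in HSC against 82.1 ± 10.8 CPM in HPC.

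Of 22 genes that charge mitochondrial tRNAs or amidate charged ones, 0 were higher and 3 (13.6%) were lower. Of all tested genes, 17.6% were lower, and the median log2 change of the 22 was -0.07. Aars2, alanyl-tRNA synthetase, had 13.7, 16.8, 14.9 and 13.7 CPM in HSC libraries 1 to 4, against 26.9, 22.2, 29.1 and 27.6 CPM in HPC libraries 1 to 4, a log2 change of -0.84. Sars2, seryl-tRNA synthetase, averaged 16.9 ± 3.13 CPM in HSC against 26.8 ± 4.95 CPM in HPC, a log2 change of -0.66. Pars2, prolyl-tRNA synthetase, averaged 17.7 ± 1.55 CPM in HSC against 23.4 ± 2.21 CPM in HPC, a log2 change of -0.40. The libraries of HSC and HPC did not overlap for Aars2 or Pars2, while for Sars2 HSC 4 lay above HPC 3. The edgeR adjusted p was 0.00906 for Sars2, 0.000362 for Aars2 and 0.037 for Pars2. The call of Pars2 was kept under 10 of 21 alternatives and was lost when HSC 1, HSC 2, HSC 3, HPC 1, HPC 2 or HPC 4 was left out, at log2 changes of -0.42 to -0.34.

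The 12 transcription regulators of nuclear genes for mitochondria included the factors whose motifs are shown above. Of these 12, 0 were higher and 2 (16.7%) were lower, where 17.6% of all tested genes were, with a median log2 change of -0.11. Gabpb1, a subunit of GABP, had 106, 100.1, 116 and 109 CPM in HSC libraries 1 to 4, against 165, 187, 155 and 174 CPM in HPC libraries 1 to 4, a log2 change of -0.66 (edgeR adjusted p of 5.53e-05). Nrf1, which binds the core CGCATGCG, had 70.1, 85.2, 91.8 and 82.5 CPM in HSC libraries 1 to 4, against 105, 101, 103 and 105 CPM in HPC libraries 1 to 4, a log2 change of -0.33 (edgeR adjusted p of 0.016). All HSC libraries lay below all HPC libraries for both. The Nrf1 call was kept under 17 of 21 alternatives. It was lost in edgeR without HSC 1 (log2 change of -0.26, adjusted p of 0.0616) and at a tested fold of 1.5. It was also lost on unique exon-exon reads (edgeR adjusted p of 0.0509) and with upper quartile scaling (edgeR adjusted p of 0.0508). Gabpa, the DNA-binding subunit of GABP, and Yy1 were without a call at log2 changes of -0.16 and -0.03. Ppargc1a, a coactivator, averaged 4.74 ± 1.90 CPM in HSC against 2.14 ± 1.15 CPM in HPC and missed the threshold, with an edgeR adjusted p of 0.078.

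**Figure D5:**
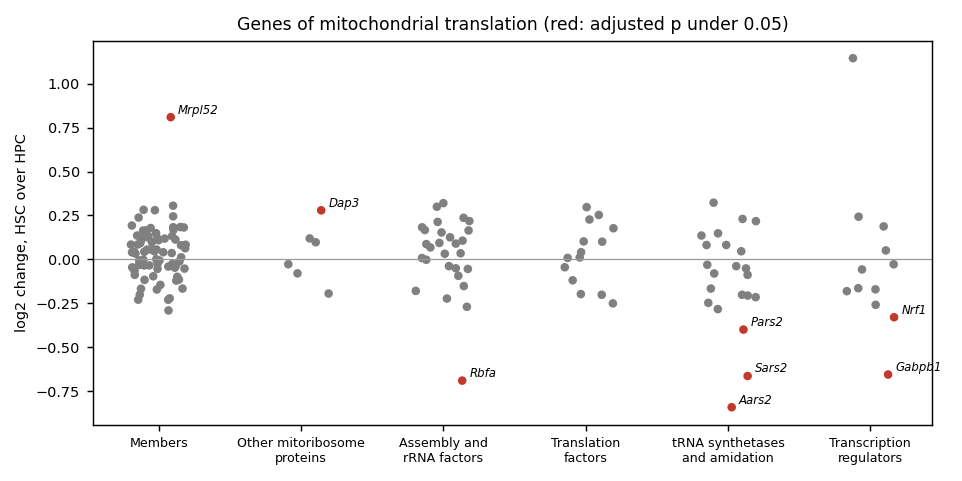
The log2 change, HSC over HPC (vertical axis), of the 77 genes and of the genes of 5 further lists of mitochondrial translation (horizontal axis; 1 point per gene, red and named where the adjusted p is under 0.05). The 77 lie between -0.29 and 0.31 apart from Mrpl52 at 0.81. In the other lists Dap3 is named above 0, and Rbfa, Aars2, Sars2, Pars2, Gabpb1 and Nrf1 are named below 0. Of all tested genes, 19.6% were called higher and 17.6% lower.

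The RNA partners of these proteins are transcribed from mitochondrial DNA. These genes have no exon entries in the files, so total reads per gene were tested, in a separate fit of 2443 genes without exons, of which 16.3% were called. The small subunit rRNA gene mt-Rnr1 had 4742, 3381, 1721 and 2226 CPM of that fit in HSC libraries 1 to 4, against 4094, 2334, 7373 and 7062 CPM in HPC libraries 1 to 4. HSC 1 lay above HPC 1, both HSC 1 and HSC 2 lay above HPC 2, and the log2 change was -0.79 with a 95% interval of -1.66 to 0.08 (edgeR adjusted p of 0.22). The large subunit rRNA gene mt-Rnr2 averaged 34545 ± 12608 CPM in HSC against 45523 ± 14074 CPM in HPC, also overlapping, with a log2 change of -0.40 and an interval of -1.05 to 0.26 (edgeR adjusted p of 0.44).

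Of the 16 mitochondrial genes tested, 11 of them encoding proteins, edgeR called 0, with 3 at an unadjusted p under 0.05, and 15 had a log2 change below 0. The median was -0.29, against 0.02 over all genes without exons. These changes are scaled within the fit of genes without exons. As a share of all gene reads, mitochondrial reads made up 2.07% to 2.65% in HSC against 1.99% to 2.51% in HPC. The fractions overlapped, so the changes below 0 do not show a lower share of mitochondrial reads in HSC. The part of the scaling in these changes was not tested.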

How the data were processed

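Exon read counts of 4 HSC and 4 HPC libraries, grouped by their titles, were analysed. Per the file headers, the deposited counts give total and unique reads of each row for exons, introns, the whole gene and exon junctions. The deposited RPKM and TPM, scaled by the authors, were not used, and RPKM given here was recomputed from the exon reads. The build is mm10, per the submitters' processing notes, while the aligner, the counter and strand use were not given in the sources used here. Double-stranded cDNA was amplified by 18 PCR cycles and libraries were made with Nextera XT, per the labels' protocols, so PCR copies count as reads and limits cover counting error only. A count of 0 allows 3 reads, 0.149 to 0.179 CPM. Rows were summed per NCBI gene ID, as 6 of the 77 genes have several rows (85 in all).

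Exon reads were tested with edgeR 4.0.16 (R 4.3.3, limma 3.58.1), with filterByExpr, TMM scaling, the quasi-likelihood test without covariates and a threshold of 0.05 on Benjamini-Hochberg adjusted p over 12751 genes. The standard error is the size of the change over the square root of F. The biological coefficient of variation was 18.3%. Tables were made with Python 3.11.15 and pandas 2.3.3. No 2 libraries looked like 1 deposited again (mean chi-square per gene of 11.6 to 38.7). In the test on simulated data, 5 of 99 calls were false.

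The genes and lists were chosen with earlier results of these data known. Genes were named by rule, taking those called, the 3 highest and 3 lowest per length, the 3 most variable within a fraction, the 3 uncalled with the smallest standard error, the 3 with the fewest unique reads, and called members of the lists of mitochondrial translation. Of 30 assembly and rRNA factors listed, 28 were found by symbol. Alternatives were DESeq2 1.42.0, voom with quality weights, a replicate block, unique exon reads, a tested fold of 1.5, leaving out each library, scaling by upper quartile or RLE, and a filter of 50 reads in 4 libraries or none. Main-assembly rows only, gene reads, unique exon-exon reads and leaving out the libraries numbered 4 were added after seeing the data.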

Additional observations from a re-analysis of the deposited data

Results flagged for a closer look

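Mrpl33 in HPC 3, at 118 CPM, stood far below the other 3 HPC libraries, which had 161 to 169 CPM. Among 34 groups of 4 libraries examined this was 1 found, and chance alone gives about 1 in 20. Its part in the missing call of Mrpl33 is given in the report.

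Reads on the pseudogene Mrpl23-ps1, which has no exon entry and enters no comparison, reached 1074 in HSC, with 551, 438, 751 and 1074 gene reads in libraries 1 to 4, and 832 in HPC, with 761, 832, 513 and 517. Mrpl23 itself had 27.8% unique exon reads, so reads of the pair cannot be told apart. The other 4 pseudogene rows had 0 to 2 reads in any library.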

How the results depend on the processing

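Mrpl52 kept its direction under every alternative run and its call under all but the tested fold of 1.5 (0.81, adjusted p of 0.086), at log2 changes of 0.67 to 0.89, or 0.65 to 0.90 with 1 library left out. The count of the 77 higher in HSC was 2 with DESeq2, with 50 reads in 4 libraries (with Mrpl50 in both) and on unique exon-exon reads (there with Mrpl23, 0.48), 3 with upper quartile scaling (adding Mrpl23 and Mrpl50), 0 at a tested fold of 1.5, and 1 to 2 with 1 library left out. With the replicate block it was 4 (Mrpl41 0.30, Mrpl50 0.28, Mrps16 0.27, Mrpl52 0.79), but same-numbered libraries deviated together for numbers 3 and 4 (correlations of 0.21 and 0.31) and not for 1 and 2 (0.01 and -0.18), so the numbers were not taken to pair them. HSC 3 and HSC 4 correlated best with their own number and HSC 1 and HSC 2 did not. The count lower was 1 with voom and 1 without the libraries numbered 4 (Mrpl33 in both, -0.40 and -0.39), and 0 to 3 with 1 library left out (3 without HSC 4, adding Mrpl43 and Mrps10). The median change of the 77 was -0.01 to 0.12, or -0.05 to 0.09 with 1 library left out, and upper quartile scaling moved the median of all genes to 0.08. Over these alternatives 16.5% to 40.9% of all genes were called. Mrpl40, Mrps18b and Mrps23 were not tested on unique exon reads, nor Mrps10 on unique exon-exon reads. Of 254 values of the 13 genes named by rule without a call, 4 passed the threshold, all of Mrpl33, and 23 had the other sign, without a call.

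Among the lists, the count higher was 0 for other mitoribosome proteins on gene reads, with no count filter and without the libraries numbered 4 (0 to 1 with 1 library left out). It was 1 for assembly factors on gene reads, with the replicate block and with upper quartile scaling (0 to 1). It was 1 for translation factors with DESeq2 and voom and 2 with upper quartile scaling. It was 0 to 1 for genes of tRNA charging and amidation with 1 library left out. For transcription regulators it was 1 with DESeq2, voom and without the libraries numbered 4 (0 to 1). The count lower was 1 for transcription regulators on unique exon-exon reads and with upper quartile scaling, and 1 to 2 with 1 library left out. The cause of these differences was not tested. In the simulated counts, where far fewer genes were called than in the data, 2 of 50 genes changed 1.25-fold were recovered.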
